A study of Mus musculus with 6 samples.

Results

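The tetraspanin family was followed in macrophages grown from sorted bone marrow monocytes of mice. Members were taken as every listed gene whose symbol starts with Tspan, together with Cd9, Cd37, Cd53, Cd63, Cd81, Cd82 and Cd151. This gave 28 of the 24411 listed genes, namely 27 that encode protein and Tspan2os, a noncoding RNA whose gene overlaps Tspan2. The rule itself uses names and no measured value. Of the 28, 18 had enough counts to be tested among 11692 tested genes.

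Gene expression was measured by RNA sequencing of total RNA depleted of ribosomal RNA. All samples came from C57BL/6 mice, a common inbred line. Marrow monocytes were sorted by flow cytometry into an LFA1-hi Itgam-hi subset and an LFA1-lo Itgam-lo subset, and each was grown for 7 days with 20 ng/ml of macrophage colony-stimulating factor and 10% serum, with new medium on day 4. LFA1 is the integrin made of the Itgal and Itgb2 products, and Itgam encodes the CD11b integrin chain. Each group held 3 libraries, called LFA1-hi and LFA1-lo macrophages below after the sort that came before the culture. Nothing in the labels says whether the 3 libraries of each group stem from different animals or culture dishes, nor whether animals were pooled. The p-values therefore weigh the difference between the groups against how much these libraries vary, and that variation may be technical.

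Tetraspanins are small membrane proteins whose helices cross the membrane and hold a small and a large loop outside the cell. They bind one another and partner proteins such as integrins, immunoglobulin superfamily proteins and proteases, and so gather them in membrane patches often called tetraspanin-enriched microdomains. In leukocytes they are known for roles in adhesion, migration, antigen presentation, membrane fusion and the release of vesicles. In mouse macrophages Cd9 and Cd81 are known as brakes on the fusion of cells into multinucleated giant cells.

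Summed expected counts, the estimated reads of all genes, were 15191262 to 17614509 in LFA1-hi libraries and 16404922 to 17115544 in LFA1-lo libraries. A count of 3 corresponded to 0.170 to 0.197 CPM, the counts scaled to library size. Principal component 2 held 10.6% of the variance, against 69.5% for component 1. On component 2 the LFA1-lo libraries were widely spread, at 16.1, −17.1 and 4.16 for replicates 1, 2 and 3. LFA1-lo replicate 2 correlated by 0.972 and 0.969 with replicates 1 and 3, and these by 0.979 with each other. Values without LFA1-lo replicate 2 are therefore given where they matter. Macrophage markers were abundant in both groups, with 9 of 9 detected at a summed 13517 to 15801 CPM in LFA1-hi and 17465 to 22821 CPM in LFA1-lo libraries. Of these 9 markers, 1 was higher and 5 were lower in LFA1-hi macrophages. Granulocyte markers summed to 24.7 to 28.7 CPM in LFA1-hi and 71.4 to 91.5 CPM in LFA1-lo libraries. All 9 listed were detected and 4 of 5 tested were lower in LFA1-hi. Most of both sums came from Csf3r (19.1 to 25.0 CPM in LFA1-hi and 49.6 to 59.5 CPM in LFA1-lo). Markers of T or NK cells, mast cells or basophils, dendritic cells and the erythroid lineage each summed to at most 1.53 CPM in any library, with Cd3e, Cpa3 and Flt3 at 0. B cell markers summed to at most 3.70 CPM, with Pax5 and Ebf1 at 0. The 5 platelet markers summed to 258 to 291 CPM in LFA1-hi and 227 to 302 CPM in LFA1-lo libraries, nearly all from Pf4, a chemokine gene (257 to 289.8 CPM in LFA1-hi and 224 to 299.97 CPM in LFA1-lo), while Gp9 was at 0. The 6 stromal and endothelial markers summed to 22.5 to 26.7 CPM in LFA1-hi and 13.5 to 19.6 CPM in LFA1-lo libraries. Most of this was Kdr (20.1 to 25.2 CPM in LFA1-hi and 11.2 to 17.9 CPM in LFA1-lo). All 6 were detected in LFA1-lo libraries, but Col1a1 and Col1a2 had 0 counts in LFA1-hi, against 12 and 15 in LFA1-lo.

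The family was on balance lower in LFA1-hi macrophages. Of the 18 tested members 7 fell, namely Tspan32, Cd81, Cd82, Tspan13, Cd37, Cd9 and Cd63, and 1 rose, Tspan3. Tspan32 had the largest change (log2 fold change −2.21), followed by Cd81 (−1.30) and Cd82 (−0.93). The other 10 tested members, among them Cd53, Cd151 and the regulators of the protease Adam10, did not pass the threshold. These are the calls of edgeR's quasi-likelihood test at a false discovery rate of 0.05 over all tested genes. Across all tested genes that rule called 31.7%, with 16.1% higher and 15.6% lower, so the members' 44.4% called, 5.56% higher and 38.9% lower, lay above the background for falls and below it for rises. Among the 15 members with a mean of at least 10 TPM, a length-corrected level, 8 were called, where 36.8% of all 7681 genes at that level were called and 18.6% were lower. The median log2 fold change was −0.16 over the 18 members and −0.0047 over all tested genes. The TPM of the groups did not overlap for 10 members, 9 lower and 1 higher, as for 47.2% of all tested genes (23.5% lower and 23.7% higher). Tspan32 and Cd81 fell by at least 2-fold, as did 3.81% of all tested genes. Scaling by library totals alone left 8 members called, 7 of them lower, while over all genes it gave 2294 higher and 1471 lower calls instead of 1883 and 1822. Without LFA1-lo replicate 2, 9 members were called, 8 lower and 1 higher. Over all genes 5032 were called without that library and 2288 to 2427 without any of the LFA1-hi libraries, against 3705 with all 6. In bulk samples, fewer cells of a type and less RNA per cell cannot be told apart.

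**Figure D1:**
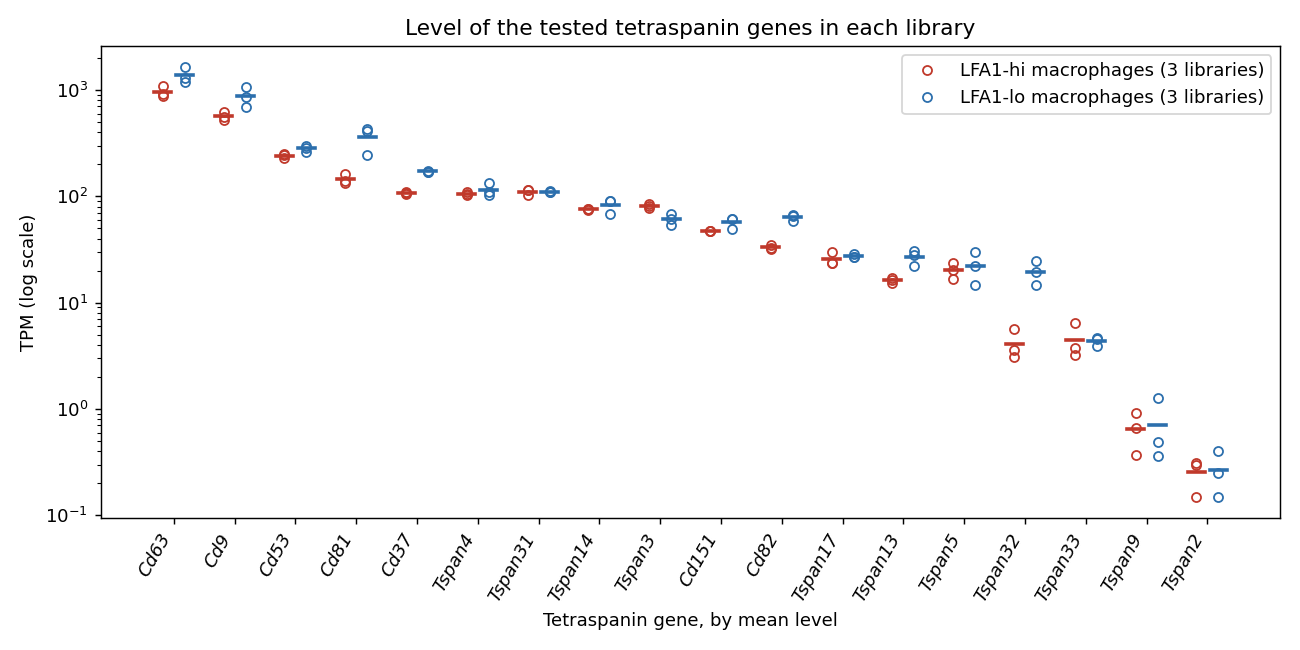
Level in TPM on a log scale of the 18 tested tetraspanin genes, ordered by mean level; circles are single libraries (3 LFA1-hi, red; 3 LFA1-lo, blue) and bars are group means. Group means run from 1369.6 TPM for Cd63 in LFA1-lo down to 0.253 TPM for Tspan2 in LFA1-hi, and Cd81 and Tspan32 show wide gaps between the groups.

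**Figure D2:**
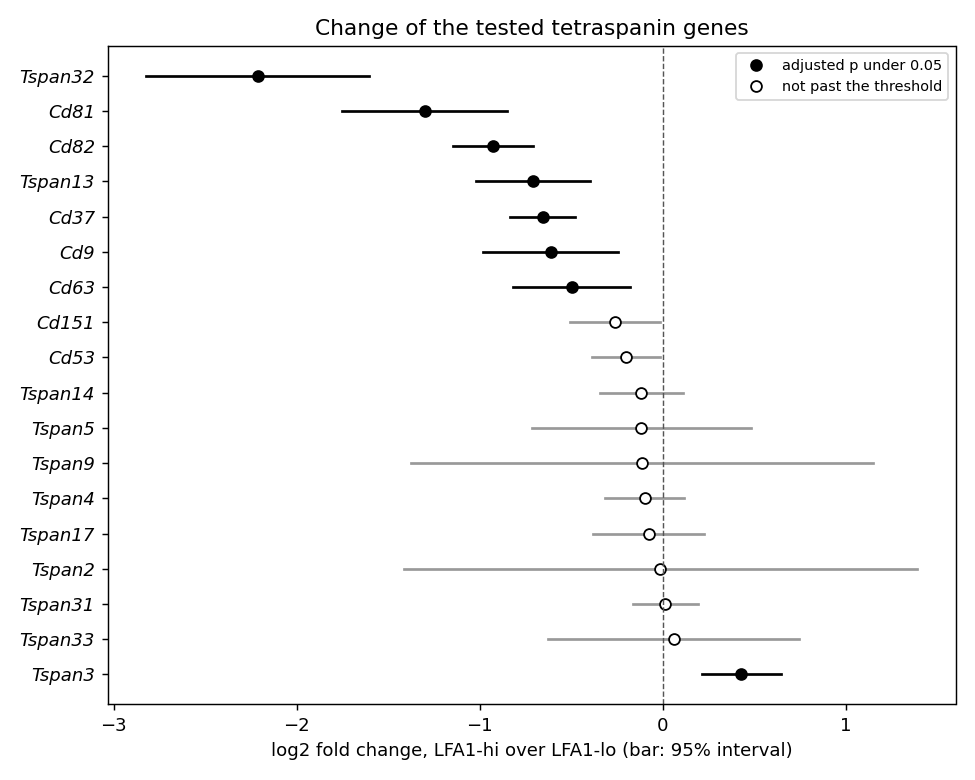
log2 fold change of LFA1-hi over LFA1-lo for the 18 tested tetraspanin genes, with 95% intervals derived from the edgeR fit. Filled circles passed an adjusted p of 0.05. The 7 genes that fell run from −2.21 (Tspan32) to −0.50 (Cd63), and Tspan3 at 0.43 was the member that rose.

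The family as a whole was abundant, and a pair of genes made up most of it. Its summed level was 2546 ± 157 TPM in LFA1-hi and 3653 ± 306 TPM in LFA1-lo libraries (SD, n = 3 each), with ranges of 2443 to 2727 and 3354 to 3966 TPM that did not overlap. Cd63 and Cd9 together held 59.9% ± 2.07 of that sum in LFA1-hi and 61.1% ± 6.03 in LFA1-lo libraries. The share of Cd81 was 5.69% ± 0.783 in LFA1-hi and 10.1% ± 3.41 in LFA1-lo libraries, and the groups overlapped, since LFA1-lo replicate 2 had 6.16% and LFA1-hi replicate 1 had 6.57%. The share of Tspan3 was 3.19% ± 0.201 in LFA1-hi and 1.69% ± 0.342 in LFA1-lo libraries, and these ranges did not overlap. This was not particular to Tspan3, since a gene at an even level gains share when the sum is lower. The share of Tspan31 was 4.33% ± 0.259 in LFA1-hi and 3.04% ± 0.299 in LFA1-lo libraries. Shares of Tspan31, Cd53, Tspan14 and Cd151 were likewise higher in LFA1-hi without overlap, and that of Cd82 was lower without overlap. By mean level Cd63 and Cd9 came first and second in both groups. Next came Cd53 and then Cd81 in LFA1-hi macrophages, and Cd81 and then Cd53 in LFA1-lo macrophages. No test was made on these sums and shares.

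Cd63, Cd9, Cd81, Cd82 and Cd151 are broadly expressed members that carry a CD number, and 4 of these 5 fell. Of all tested genes 15.6% were called lower, and the calls of Cd63 and Cd9 were lost in some fits without a library. Cd63, found mainly in late endosomes, lysosomes and secreted vesicles, is encoded on chromosome 10 (GRCm38, 128896231 to 128912822). It stood at 884, 918 and 1084 TPM in LFA1-hi replicates 1, 2 and 3, against 1284, 1628 and 1197 TPM in LFA1-lo replicates 1, 2 and 3. The groups did not overlap, but the highest LFA1-hi library came close to the lowest LFA1-lo library. The log2 fold change was −0.50 (SE 0.14, edgeR adjusted p = 0.0265). The call was lost when LFA1-hi replicate 1 (−0.45, adjusted p = 0.106) or LFA1-hi replicate 2 (−0.44, adjusted p = 0.107) was left out, and adjusted p ran from 0.00419 to 0.107 over all alternatives. Without LFA1-lo replicate 2 it was −0.33 and passed (adjusted p = 0.00839).

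Cd9, which binds integrins and immunoglobulin superfamily partners and takes part in membrane fusion, is encoded on chromosome 6 (125460266 to 125494760). Its span shares 10378 bases with Gm28809 and 6211 bases with Gm26728. These noncoding RNA genes are not listed, so reads from them may count towards Cd9. Cd9 had 558, 525 and 615 TPM in LFA1-hi and 861, 1065 and 696 TPM in LFA1-lo libraries, and all LFA1-lo values were above all LFA1-hi values. Its log2 fold change was −0.61 (SE 0.16, edgeR adjusted p = 0.0212). The call was lost without LFA1-hi replicate 1 (−0.61, adjusted p = 0.0683), LFA1-hi replicate 2 (−0.54, adjusted p = 0.0839) or LFA1-lo replicate 1 (−0.64, adjusted p = 0.052), and over all alternatives adjusted p ran from 0.000983 to 0.0839. Without LFA1-lo replicate 2 it was −0.42 (adjusted p = 0.00708).

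Cd81, a partner of several integrins, is encoded on chromosome 7 (143052750 to 143067930). Its level was 160.5, 134 and 138 TPM in LFA1-hi and 432, 245 and 411 TPM in LFA1-lo libraries. The LFA1-hi libraries lay close together, whereas LFA1-lo replicate 2 was well below the other LFA1-lo libraries though above every LFA1-hi library. The log2 fold change was −1.30 (SE 0.19, edgeR adjusted p = 0.00199), a 2.46-fold lower level, and it ran from −1.504 to −1.17 over the 6 fits that leave out a library, all of which passed (adjusted p of at most 0.0134). In LFA1-lo replicate 2 Cd9 and Cd63 had their highest values of the 6 libraries and Cd81 its lowest value of the LFA1-lo libraries. The ratio of Cd9 to Cd81 TPM was accordingly 3.48 to 4.45 in LFA1-hi and 1.70 to 4.36 in LFA1-lo libraries, which overlap.

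Cd82, known as a suppressor of metastasis and also found in endosomes, is encoded on chromosome 2 (93419102 to 93462950). Its span shares 10132 bases with the noncoding RNA gene Gm10804 (0.15 TPM in LFA1-hi and 0.277 TPM in LFA1-lo), so reads there may be assigned to either. Cd82 had 32.5, 31.8 and 35.2 TPM in LFA1-hi, against 66.3, 59.2 and 65.7 TPM in LFA1-lo libraries. The groups lay far apart relative to their spread, with a log2 fold change of −0.93 (SE 0.10, edgeR adjusted p = 0.000177) or 1.90-fold lower. Cd151, a partner of laminin-binding integrins encoded on chromosome 7 (141467362 to 141471481), had 46.9, 47.1 and 46.9 TPM in LFA1-hi and 61.6, 61.2 and 49.4 TPM in LFA1-lo libraries. All LFA1-lo values were above the LFA1-hi values, yet the gene did not pass (−0.26, SE 0.11, edgeR adjusted p = 0.0962). Leaving out LFA1-lo replicate 3, the lowest of its group, gave −0.36 and a call (adjusted p = 0.0185), with a range over alternatives of 0.0185 to 0.245. Leaving out LFA1-lo replicate 2 gave −0.19 and no call (edgeR adjusted p = 0.150). The span of Cd151 shares 410 bases with Gm10575, a noncoding RNA gene that is not listed, whose reads may count towards Cd151.

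The leukocyte members Cd37, Cd53 and Tspan32 are found mainly in blood cells, and Cd37 and Tspan32 fell. Cd37, encoded on chromosome 7 (45233632 to 45239340), had 107, 109.7 and 106 TPM in LFA1-hi and 170.0, 174 and 169.7 TPM in LFA1-lo libraries. Its libraries were nearly alike within a group and clearly apart between groups. The log2 fold change was −0.66 (SE 0.08, edgeR adjusted p = 0.000353), a 1.58-fold lower level. Cd53 (chromosome 3, 106758861 to 106790149) had 229, 249 and 245 TPM in LFA1-hi and 283, 299.98 and 261 TPM in LFA1-lo libraries. These ranges did not overlap, but the change was small and missed the threshold (−0.20, SE 0.08, edgeR adjusted p = 0.09). It passed once LFA1-lo replicate 3 was left out (−0.26, adjusted p = 0.0399, with a range of 0.0399 to 0.258 over alternatives). Without LFA1-lo replicate 2 it was smaller and did not pass (−0.13, edgeR adjusted p = 0.109).

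Tspan32, also called Tssc6, restrains T cell proliferation in mice and is encoded on chromosome 7 (143004907 to 143019486). It had 3.58, 3.08 and 5.66 TPM in LFA1-hi, against 19.4, 14.8 and 24.6 TPM in LFA1-lo libraries. Even the highest LFA1-hi library was far below the lowest LFA1-lo library. The log2 fold change of −2.21 (SE 0.27, edgeR adjusted p = 0.000406) was a 4.64-fold lower level and ran from −2.51 to −2.02 in fits without a library. Over the groups it had 168 counts in LFA1-hi and 749 in LFA1-lo. The granulocyte markers, most of whose sum was Csf3r, were also lower in LFA1-hi cultures (24.7 to 28.7 CPM, against 71.4 to 91.5 CPM in LFA1-lo). Their part in the falls of Tspan32 and Cd37 was not tested.

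**Figure D3:**
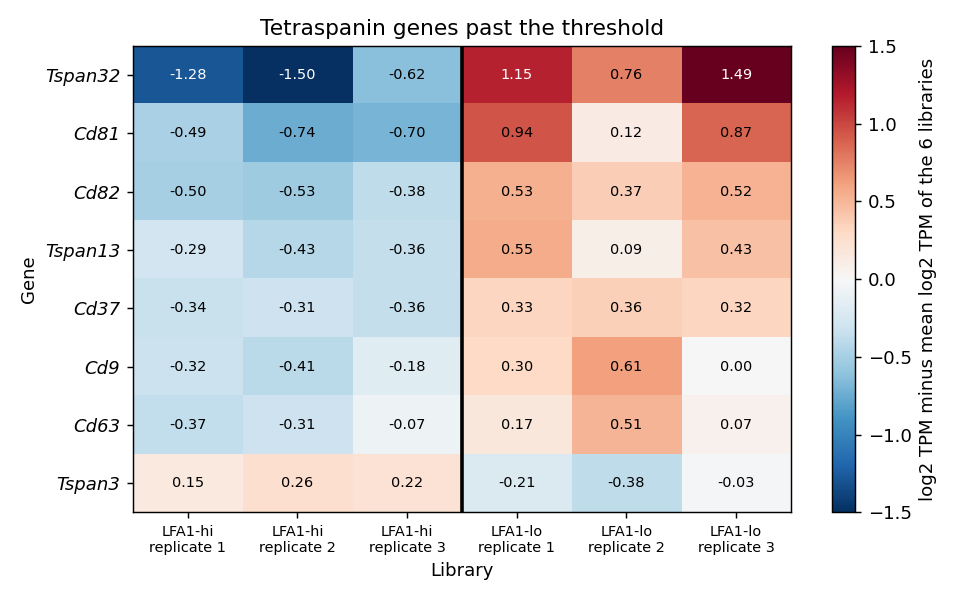
Heat map of the 8 tetraspanin genes past the threshold (rows) in the 6 libraries (columns, LFA1-hi left of the black line); colour and printed value are log2 TPM minus the gene's mean over the 6 libraries. All values left of the line are below 0 for the upper 7 genes and above 0 for Tspan3, and LFA1-lo replicate 2 is low for Cd81 (0.12) and Tspan13 (0.09) but high for Cd9 (0.61) and Cd63 (0.51).

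Tspan32 and Cd81 are neighbours on chromosome 7, with 33263 bases between them, and they are the pair of members with the largest falls. R74862, a noncoding RNA gene mentioned here because of its position, shares 937 bases with Cd81, so that reads there may be assigned to either. It averaged 0.51 TPM in LFA1-hi and 1.16 TPM in LFA1-lo libraries and did not pass (edgeR adjusted p = 0.218). Other neighbouring pairs offer little comparison, since a pair with a member at 0 counts could not show a shared fall. Cd151 and Tspan4 lie 3754 bases apart on the same chromosome and neither passed the threshold. Cd82 fell while Tspan18, 84550 bases away, was at 0 counts in all 6 libraries. Tspan11 and Tspan9 lie 8364 bases apart, the first at 0 counts and the second below 1.3 TPM in every library.

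The letters before the transcription starts of Tspan32 and Cd81 are shown because these neighbours had the largest falls, those of Cd82 because it had the next largest and of Tspan3 because it was the member that rose. They come from RefSeq promoters on GRCm38.p6, read 5′ to 3′ on the gene's strand, and leave out GENCODE exons and letters past the start of the RefSeq gene. Capitals mark a GC box (GGGCGG) or a PU.1 motif (GAGGAAGT), searched on both strands.
Tspan32, chr7:143004796-143004906, plus strand: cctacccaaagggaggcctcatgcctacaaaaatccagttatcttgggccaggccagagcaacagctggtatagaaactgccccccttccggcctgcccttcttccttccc
Cd81, chr7:143052500-143052738, plus strand: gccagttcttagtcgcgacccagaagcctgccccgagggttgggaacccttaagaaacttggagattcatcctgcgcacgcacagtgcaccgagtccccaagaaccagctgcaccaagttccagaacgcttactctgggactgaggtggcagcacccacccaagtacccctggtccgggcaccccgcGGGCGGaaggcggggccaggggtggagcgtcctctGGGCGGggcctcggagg
Cd82, 1 of its 4 listed starts, chr2:93461913-93462101, minus strand: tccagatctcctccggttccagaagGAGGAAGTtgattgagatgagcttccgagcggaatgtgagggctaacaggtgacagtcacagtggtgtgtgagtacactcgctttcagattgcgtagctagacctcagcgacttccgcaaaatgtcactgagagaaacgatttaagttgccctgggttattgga
Tspan3, chr9:56161071-56161320, minus strand: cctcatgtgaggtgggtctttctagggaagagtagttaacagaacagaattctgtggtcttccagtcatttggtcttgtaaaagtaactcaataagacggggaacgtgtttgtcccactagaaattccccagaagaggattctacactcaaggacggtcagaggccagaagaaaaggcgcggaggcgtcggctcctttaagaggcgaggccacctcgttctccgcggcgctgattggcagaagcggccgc
The listed Tspan32 start lies inside the gene, downstream of that point. The Cd81 stretch holds a GC box at 63 and at 28 bases before the start, and another at 12 bases lies in an annotated exon and is not printed. The Cd82 stretch holds a PU.1 motif 225 bases before that start, and this start was picked for that motif. Of the other Cd82 starts, 1 has a GC box 68 bases and 1 a GC box 26 bases before it, and the remaining start has neither motif. Neither motif is in the 250 bases before the Tspan32 or Tspan3 start.

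Over the 250 bases before the start, the 27 members found in the RefSeq promoter table had 37 windows. A GC box was in 43.2% of these, against 32.7% of 32851 windows of all genes. The PU.1 motif, bound by a factor that directs myeloid development, was in 5.41% of member windows, those of Cd37 and Cd82, against 2.44% of all windows. The ETS motif CCGGAAGT was in 0 member windows and in 2.88% of all. The E-box CACGTG was in 5.41%, those of Cd37 and Tspan4, against 6.02% of all. The AP-1 motif TGANTCA was in 2.70%, that of Tspan15, against 6.75%, and TATAAA in 2.70%, that of Tspan12, against 12.4%. Windows of a gene with several starts can share letters, and a match describes letters only.

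Among the other members named Tspan, Tspan13 fell and Tspan3 rose. Tspan13 (chromosome 12, 36014555 to 36042478) had 16.9, 15.4 and 16.2 TPM in LFA1-hi and 30.4, 22.1 and 28.0 TPM in LFA1-lo libraries. Its lowest LFA1-lo library, replicate 2, was still above all LFA1-hi libraries. The log2 fold change was −0.71 (SE 0.14, edgeR adjusted p = 0.00451), and −0.81 without LFA1-lo replicate 2. Tspan3, a widely expressed member on chromosome 9 (56135884 to 56161070), had 77.9, 83.8 and 81.7 TPM in LFA1-hi and 60.5, 54.1 and 68.7 TPM in LFA1-lo libraries. It was the member with every LFA1-hi library above every LFA1-lo library. Its log2 fold change was 0.43 (SE 0.10, edgeR adjusted p = 0.00837), and it passed in all 6 fits without a library (adjusted p of at most 0.0427).

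Tspan4 and Tspan31 were at similar levels in the groups. Tspan4, which builds the membrane bodies called migrasomes that moving cells leave behind, had 103, 110.3 and 104 TPM in LFA1-hi and 110.2, 104 and 133 TPM in LFA1-lo libraries. The groups overlapped, and the 95% interval of its log2 fold change was −0.31 to 0.12. Tspan4 shares 292 bases with Chid1, so some of its reads may be assigned to either gene. Tspan31 lies beside the cyclin-dependent kinase gene Cdk4 on chromosome 10, sharing 2 bases with it. The Tspan31 span also shares 492 bases with A730063M14Rik, a noncoding RNA gene that is not listed, whose reads may count towards Tspan31. Tspan31 had 102, 114 and 114 TPM in LFA1-hi and 111, 109 and 112 TPM in LFA1-lo libraries, with an interval of −0.16 to 0.19. Cdk4 itself, a cell cycle gene named after its value was seen, rose by 0.43 (edgeR adjusted p = 0.00685).

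Tspan5, Tspan10, Tspan14, Tspan15, Tspan17 and Tspan33 form the TspanC8 group, whose members bind the protease Adam10 and guide its exit from the endoplasmic reticulum and its choice of substrates. Of these 6, 4 were tested and 0 passed (0 also at an unadjusted p under 0.05 in edgeR), where 31.7% of all tested genes passed and 4987 of 11692 had an unadjusted p under 0.05. Tspan14 was the most abundant, with 75.1, 76.1 and 74.7 TPM in LFA1-hi and 90.8, 68.8 and 89.5 TPM in LFA1-lo libraries. LFA1-lo replicate 2 lay below all LFA1-hi libraries, and without it Tspan14 passed (−0.22, adjusted p = 0.0228) where the value with all libraries was −0.12 (edgeR adjusted p = 0.413, with a range of 0.0228 to 0.745 over alternatives). Tspan17 had 23.8, 23.7 and 29.6 TPM in LFA1-hi and 28.6, 27.1 and 26.9 TPM in LFA1-lo libraries. Tspan5 had 16.5, 20.4 and 23.5 TPM in LFA1-hi and 21.9, 29.9 and 14.7 TPM in LFA1-lo libraries. In both genes the ranges of the groups overlapped. Tspan33 was lower, at 4.43 ± 1.71 TPM in LFA1-hi and 4.35 ± 0.403 TPM in LFA1-lo (SD, n = 3 each). The intervals of Tspan14 (−0.34 to 0.11) and Tspan17 (−0.38 to 0.23) lay within 1.5-fold in both directions, whereas those of Tspan5 (−0.72 to 0.48) and Tspan33 (−0.63 to 0.75) did not. Tspan10 had 3 counts over the LFA1-hi and 1 over the LFA1-lo libraries, and Tspan15 had 2 and 8, the 8 all in LFA1-lo replicate 1.

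In all, 6 of the 18 tested members had an interval within 1.5-fold both ways, and none of these passed. They were Cd53, Cd151, Tspan4, Tspan31, Tspan14 and Tspan17. Of all tested genes, called or not, 41.4% had such an interval. The other tested members that did not pass were Tspan5, Tspan33, Tspan9 and Tspan2, whose intervals were wider. Tspan9, known from platelets, had 68 counts over the LFA1-hi and 72 over the LFA1-lo libraries, and Tspan2, known from myelin-forming cells, had 29 and 28.

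The 10 members that were not tested were at or near 0. Tspan6, Tspan11, Tspan18 and Tspan2os had no count in any library. Tspan12, a coreceptor of Norrin signalling in retinal vessels, had 0 counts over the LFA1-hi and 3 over the LFA1-lo libraries, and Tspan1 had 3 and 6. Tspan7 had 10 and 17 counts. Tspan8 had 2, 0 and 1 counts in LFA1-hi and 5, 1 and 16 in LFA1-lo replicates 1, 2 and 3, so most of its LFA1-lo counts lay in replicate 3. Of the tetraspanins outside the naming rule, Rom1, known from photoreceptors, had 2.48 to 3.11 TPM in LFA1-hi and 3.41 to 3.51 TPM in LFA1-lo libraries and did not pass (edgeR adjusted p = 0.562). Upk1a, Upk1b and Prph2 had at most 3 counts in either group.

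Proteins that tetraspanins are known to bind or to sort with were taken as a list of 43 genes, of which 40 were tested. Of these 16 fell and 5 rose in LFA1-hi macrophages (52.5% called, median −0.17), against 31.7% of all tested genes called, 16.1% higher and 15.6% lower. Most partners had a mean of at least 10 TPM, and of all genes at that level 36.8% were called, 18.3% higher and 18.6% lower. The list was chosen with earlier results of these data known, and no test was made of its share. The counts in the subgroups below are of few genes and stand against the same shares. Without LFA1-hi replicate 2 or 3 only 10 or 11 were called, and 10 of the 21 were called in all 6 fits without a library. Among proteases and their substrates, Adam10, the partner of the TspanC8 group, rose. It had 153, 160.1 and 149 TPM in LFA1-hi and 109, 85.9 and 121 TPM in LFA1-lo libraries (log2 fold change 0.57, SE 0.11, edgeR adjusted p = 0.00344). Adam17, a related protease that releases tumour necrosis factor, fell, with 111, 106 and 106 TPM in LFA1-hi and 188, 177 and 172 TPM in LFA1-lo libraries (−0.71, SE 0.07, edgeR adjusted p = 0.000163). The receptor genes Notch1 (−0.61, adjusted p = 0.00883) and Notch2 (−0.55, adjusted p = 0.00894), whose products Adam10 can cleave, fell. Adam10 thus rose where no TspanC8 gene passed the test, though whether it differed from them was not tested.

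**Figure D4:**
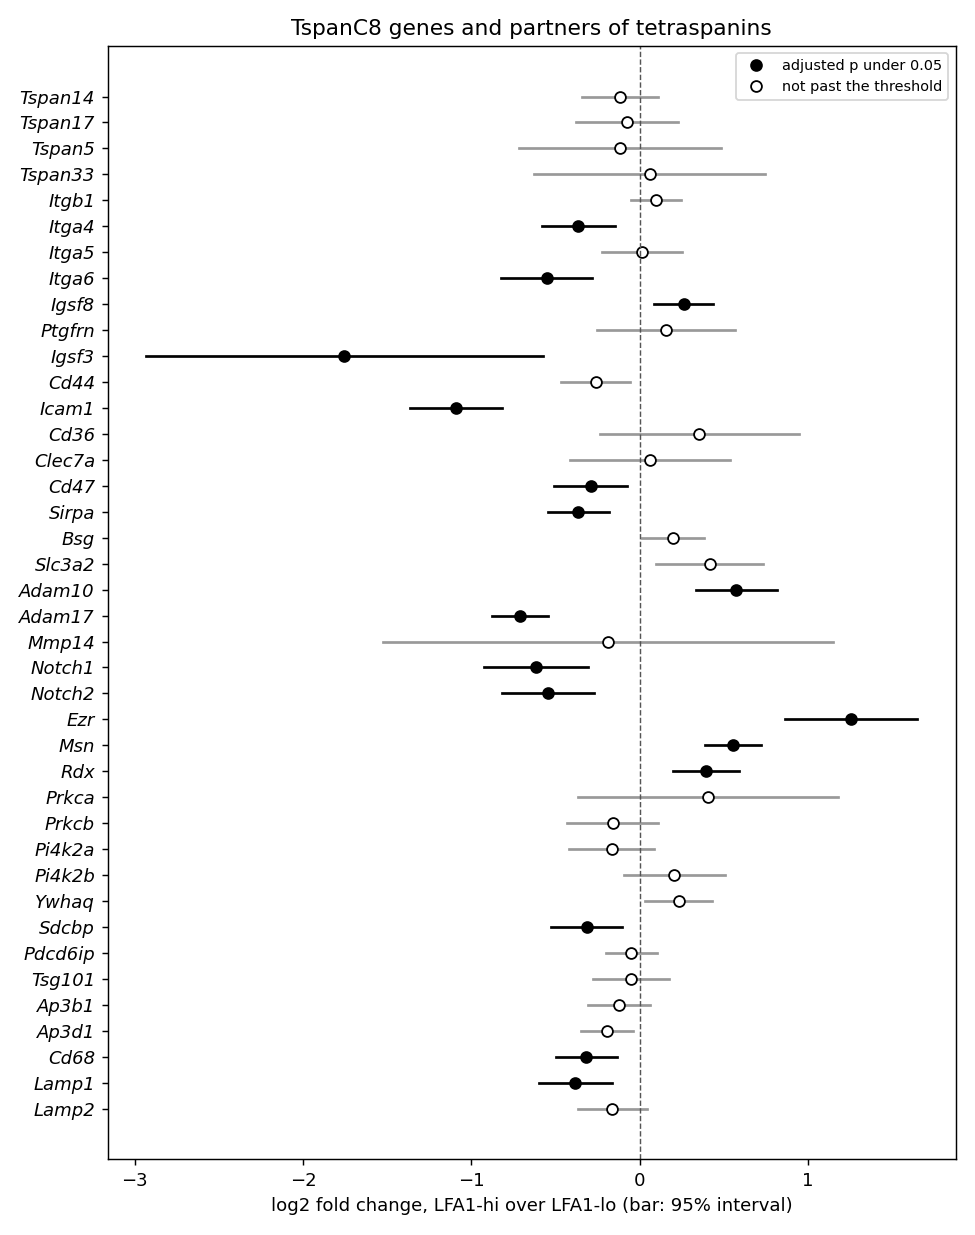
log2 fold change of LFA1-hi over LFA1-lo with 95% intervals for the 4 tested TspanC8 genes (top 4 rows) and the tested partner genes other than those of antigen presentation; filled circles passed an adjusted p of 0.05. The intervals of all 4 TspanC8 genes cover 0, Adam10 (0.57), Ezr (1.25) and Msn (0.55) lie to the right, and Icam1 (−1.09) and Adam17 (−0.71) lie to the left.

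Of the cytoplasmic partners 3 of 8 rose, all of them linkers between membrane proteins and actin. Ezr, encoding ezrin, had 65.7, 54.0 and 51.5 TPM in LFA1-hi and 22.8, 19.2 and 31.1 TPM in LFA1-lo libraries (1.25, SE 0.17, edgeR adjusted p = 0.00101). Msn, encoding moesin, rose by 0.55 and Rdx, encoding radixin, by 0.39 (adjusted p = 0.000637 and 0.00832). Of 15 tested surface partners 6 fell and 1 rose. Icam1, an adhesion molecule and ligand of LFA1, had 39.9, 33.0 and 41.7 TPM in LFA1-hi and 90.7, 83.1 and 74.7 TPM in LFA1-lo libraries (−1.09, SE 0.12, edgeR adjusted p = 0.000248). The integrin chain Itga6 fell (−0.55, adjusted p = 0.00772), as did Itga4 (−0.37, adjusted p = 0.0185), while their partner chain Itgb1 was at 354 ± 8.15 TPM in LFA1-hi and 336 ± 4.38 TPM in LFA1-lo and did not pass (adjusted p = 0.304). Igsf3 (−1.75, adjusted p = 0.0305) was scarce, at or below 1.80 TPM in every library. The calls of Itga4 and Igsf3 were lost without LFA1-hi replicate 1 or 2 or LFA1-lo replicate 1, and that of Itga4 without LFA1-hi replicate 3 or with library totals (adjusted p = 0.0513) as well.

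Of 8 vesicle and sorting partners 3 fell, namely the lysosomal membrane genes Lamp1 (−0.38, edgeR adjusted p = 0.0146) and Cd68 (−0.32, adjusted p = 0.0154) and Sdcbp, the syntenin adaptor of exosome formation (−0.32, adjusted p = 0.0304). Each of these calls was lost without LFA1-hi replicate 2 or 3, those of Lamp1 and Sdcbp without LFA1-hi replicate 1 or LFA1-lo replicate 1, and that of Sdcbp without LFA1-lo replicate 3 or with library totals (adjusted p = 0.0799). All 4 class II antigen presentation genes fell, but their LFA1-lo libraries differed widely. Cd74, the invariant chain, had 8.08, 4.05 and 5.83 TPM in LFA1-hi and 65.7, 373 and 78.7 TPM in LFA1-lo libraries (edgeR adjusted p = 0.0231). LFA1-lo replicate 2, the library with the highest Cd9 and Cd63 and the lowest Cd81 of its group, thus had by far the most Cd74. H2-Aa (adjusted p = 0.00786), H2-Ab1 (adjusted p = 0.0284) and H2-Eb1 (adjusted p = 0.0178) had their highest values, of 55.7, 48.1 and 21.9 TPM, in that library too. The calls of Cd74, H2-Ab1 and H2-Eb1 were lost without LFA1-hi replicate 2 or 3, and that of H2-Eb1 without LFA1-hi replicate 1. None of the 4 passed with limma voom (adjusted p = 0.107 to 0.141). Dendritic cell markers summed to 0.224 to 0.891 CPM in LFA1-hi and 0.119 to 1.53 CPM in LFA1-lo libraries, and their part in these values was not tested.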

How the data were processed

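RNA sequencing libraries of 3 LFA1-hi and 3 LFA1-lo macrophage samples were used. RSEM, Trim Galore, bcl2fastq and the build GRCm38 are named in the submitters' processing notes. Their versions, the aligner and the strand setting are not given in those sources. Expected counts deposited by the authors are raw RSEM estimates per gene, per the file headers. TPM, also deposited by the authors, is corrected for gene length and library size. Expected counts were rounded (5.53% to 6.06% of genes per library were not whole), filtered with filterByExpr, scaled by TMM and tested for LFA1-hi minus LFA1-lo by edgeR 4.0.16 (R 4.3.3), using its robust quasi-likelihood test and adjusting p-values over 11692 genes by the Benjamini-Hochberg method. Standard errors were derived from that fit, as the size of the fitted coefficient over the square root of its F statistic. The 95% intervals use these errors around the reported log2 fold change. Levels are TPM, with SD over 3 libraries, and marker sums are CPM. The procedure was tested on simulated data. Coordinates are RefSeq's on GRCm38.p6, counted from 1, and promoter windows were matched by symbol. The members and lists were chosen with earlier results of these data known. Every member could be named, and values in each library are given for members that passed or had a mean of at least 10 TPM. Of each partner subgroup up to 4 called genes with the largest changes are named, and others named were chosen after their values were seen. Overlapping genes are uncertain, since reads can be assigned to either. Alternatives were RLE or total scaling, other filters, DESeq2 1.42.0, limma 3.58.1 (voom, or trend on log2 of TPM + 0.1 or + 1), a replicate block, a threshold of 0.01 and leaving out each library.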

Additional observations from a re-analysis of the deposited data

How the results depend on the processing

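The count of 8 tetraspanin genes called (1 higher, 7 lower) was the same with RLE scaling, library totals, no filter, at least 10 CPM in 3 libraries, DESeq2, limma voom and limma-trend on log2 TPM, and was 6 (1 higher, 5 lower) at a false discovery rate of 0.01, where Cd9 and Cd63 did not pass. Without a library it was 6 to 10 (1 higher in each, 5 to 9 lower), that of all genes 2288 to 5032 (1169 to 2589 higher, 1099 to 2443 lower) and that of partner genes 10 to 28. At 0.01, 2024 genes (1007 higher, 1017 lower) and 11 partner genes were called. Signs turned for members that never passed: Tspan2 was 0.042 with library totals and 0.015 with voom, Tspan31 −0.0055 and −0.0056 and Tspan33 −0.020 and −0.033 on log2(TPM + 1) and log2(TPM + 0.1). Without a library Tspan2 ran from −0.29 to 0.38, Tspan4 from −0.15 to 0.0014, Tspan5 from −0.35 to 0.19, Tspan9 from −0.41 to 0.59, Tspan17 from −0.20 to 0.0027, Tspan31 from −0.016 to 0.056 and Tspan33 from −0.31 to 0.27. The cause was not tested. With the replicate number as a block 8 members (1 higher, 7 lower), 3253 of all genes and 19 partner genes were called, and H2-Ab1 (adjusted p = 0.0896) and Cd74 (0.0602) were lost. Without the filter H2-Ab1 (0.0979) and H2-Eb1 (0.0717) were lost. The labels do not say whether libraries with the same number share an origin. Their deviations from the group means correlated by 0.04, 0.02 and −0.07, and not every library correlated best with its own number. With 3 libraries per group these values cannot decide whether such libraries were paired. Tspan2 and Tspan9 had few counts and wide intervals, and the untested members were too scarce at this depth for a difference to be detectable.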
